A study of Arabidopsis thaliana with 12 samples.

Results

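The type-A response regulators of Arabidopsis thaliana were followed in flowers of the wild type and of an XBAT31 mutant, at normal temperature and after heat. The family was taken as 10 genes, ARR3 to ARR9 and ARR15 to ARR17, chosen by their gene identifiers from the 27715 genes of the deposited table. The family was proposed with results of these data already known, and which values led to it is not recorded. The members' values are therefore given as a description, with no p-value. Messenger RNA was measured by RNA sequencing in 12 libraries of 4 groups. Per the labels, the groups were wild type at 22 °C, wild type at 38 °C, mutant at 22 °C and mutant at 38 °C, with the heat lasting 3 hours. Each group had 3 biological replicates, and each replicate pooled 9 flowers of stages 1 to 12. XBAT31 encodes a RING-type ubiquitin ligase with ankyrin repeats, and the labels do not say which allele the mutant carries.

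Cytokinin is sensed by membrane histidine kinases, which pass a phosphate through phosphotransfer proteins to response regulators in the nucleus. Type-B response regulators are transcription factors that switch on cytokinin-responsive genes, among them the type-A genes. Type-A proteins consist of little more than the receiver domain, bind no DNA themselves and act as negative feedback on the same pathway. In flowers, cytokinin is known for its part in meristem activity, gynoecium and ovule development, and type-A transcripts are widely read as a gauge of cytokinin response.

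The depth was 44983198 to 63088433 estimated counts per library, and fragment numbers behind these counts are not known. In each library labelled as mutant, XBAT31 lay between 45.3 and 55.7 FPKM (a level scaled to gene length and to depth), against 95.3 to 110 in the wild type. By edgeR's quasi-likelihood test with Benjamini-Hochberg adjustment, its log2 difference, mutant minus wild type, was -0.93 ± 0.08 (adjusted p = 0.000861) at 22 °C. At 38 °C it was -1.15 ± 0.08 (adjusted p = 6.98e-05). The gene-level signal of XBAT31 was thus reduced and not absent. Gene-level values do not tell an intact transcript from a partial one. The small heat shock protein gene HSP18.2 rose by 7.01 ± 0.20 (adjusted p = 5.05e-08) in the wild type and 6.92 ± 0.20 (adjusted p = 5.82e-08) in the mutant, both on the log2 scale. The heat genes HSP101, HSFA2 and HSP70 also rose in both genotypes. At 38 °C these 3 were lower in the mutant than in the wild type by edgeR, with log2 differences of -1.60 ± 0.12 (adjusted p = 7.53e-05) for the disaggregase gene HSP101, -2.13 ± 0.20 (adjusted p = 0.000268) for the heat shock factor gene HSFA2 and -0.64 ± 0.13 (adjusted p = 0.0104) for the chaperone gene HSP70, while HSP18.2 did not pass at -0.40 ± 0.19. Leaving out wild-type replicate 1 at 38 °C put the HSP70 value at -0.59 and ended its call. The heat response of HSP101 was less positive in the mutant, by edgeR at -1.09 ± 0.17 (adjusted p = 0.0172). That call was lost without wild-type replicate 2 at 22 °C (-1.09), without wild-type replicate 1 at 38 °C (-1.02) and without the 3 libraries named next (-1.11). Floral organ identity genes summed to 428 to 493 FPKM in every library, so markers of the labelled tissue were present throughout. Other marker sums were less even over the libraries. Maturing pollen genes summed to 853 to 4641 FPKM, tapetum genes to 38.6 to 137 and photosynthetic tissue genes to 2930 to 10149. Gynoecium and ovule genes summed to 167 to 264 FPKM. Within the heated mutant the pollen sum ran from 853 to 3086 FPKM. Whether stage or organ make-up differed between libraries was not tested. Replicate 2 of the unheated mutant, replicate 1 of the heated mutant and replicate 2 of the heated wild type had the lowest score of their groups on the second principal component, which held 14.6% of the variance, at -88.3, -45.3 and -43.4. The heated mutant libraries were spread over that component, with the other two at 28.3 and -6.56. A gene passed when its adjusted p was below 0.05 among 23585 genes tested. With scaling on reference genes in place of TMM, which normalizes on the bulk of genes, the median of all genes moved by 0.26 in the wild-type heat response and 0.18 in the mutant one. The passing genes then split into 6343 higher and 1306 lower in the wild type, against 3375 and 3866 with TMM, and into 4477 and 1173 in the mutant, against 2669 and 3206. On log2(FPKM + 1), limma gave 4340 higher and 2713 lower in the wild type, and 3973 and 2127 in the mutant. With reference genes the genotype comparison at 38 °C had 471 higher and 1705 lower, against 1028 and 1241, and the difference of the heat responses had 16 and 314, against 96 and 278.

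The family is spread over 4 of the chromosomes, and no member overlaps another gene of the table. On TAIR10, as the deposited table gives positions, ARR4 (AT1G10470) lies at chr1:3442327-3443957, ARR7 (AT1G19050) at chr1:6577833-6579178, ARR15 (AT1G74890) at chr1:28131590-28132710 and ARR3 (AT1G59940) at chr1:22065617-22066973, all on the minus strand. ARR5 (AT3G48100) lies at chr3:17758427-17760874 and ARR6 (AT5G62920) at chr5:25252386-25254212, also on the minus strand. ARR8 (AT2G41310) at chr2:17221933-17224427, ARR9 (AT3G57040) at chr3:21109614-21111432, ARR16 (AT2G40670) at chr2:16970230-16971234 and ARR17 (AT3G56380) at chr3:20905480-20906368 are on the plus strand. RefSeq uses the symbol RR3 for AT2G41310, with ARR8 among its synonyms. Every member has 5 coding exons, and the coding sequences fall into pairs. ARR16 and ARR17 shared 84.4% of bases over the shorter sequence, ARR3 and ARR4 81.8%, ARR5 and ARR6 81.1%, ARR8 and ARR9 81.0%, and ARR7 and ARR15 74.6%. The longest identical run between any of the 45 pairs was 41 bases, against reads of 150 bases, and how reads matching several genes were counted is not stated in the labels.

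Upstream sequence is shown for 6 members, to set the letters of the type-B core motif beside the values that follow. ARR4, ARR5, ARR6, ARR7 and ARR15 each passed in at least 1 comparison, and ARR9 passed in none. ARR8, which also passed in a comparison, and ARR16, which passed in none, are not shown. Their windows held 1 and 5 places with that motif. Whether motif number goes with passing was not tested. Each window is the 300 bases before the more upstream of the starts in the deposited table and in RefSeq, read 5′ to 3′ on the gene's strand from RefSeq's TAIR10.1 genome. Capitals mark AGATT or AGATC on either strand, so AATCT and GATCT are the same motifs read from the other strand. All windows lie on the minus strand except that of ARR9. The coordinates are chr1:6579315-6579614 for ARR7, chr1:28133026-28133325 for ARR15, chr1:3444361-3444660 for ARR4, chr3:17760951-17761250 for ARR5, chr5:25254319-25254618 for ARR6 and chr3:21108759-21109058 for ARR9.
ARR7: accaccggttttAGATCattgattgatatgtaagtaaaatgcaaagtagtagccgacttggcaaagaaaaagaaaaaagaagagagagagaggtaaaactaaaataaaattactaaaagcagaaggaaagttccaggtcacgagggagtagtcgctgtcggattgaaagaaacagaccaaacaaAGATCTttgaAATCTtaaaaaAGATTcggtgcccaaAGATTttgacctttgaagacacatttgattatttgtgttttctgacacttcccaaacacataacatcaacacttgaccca
ARR15: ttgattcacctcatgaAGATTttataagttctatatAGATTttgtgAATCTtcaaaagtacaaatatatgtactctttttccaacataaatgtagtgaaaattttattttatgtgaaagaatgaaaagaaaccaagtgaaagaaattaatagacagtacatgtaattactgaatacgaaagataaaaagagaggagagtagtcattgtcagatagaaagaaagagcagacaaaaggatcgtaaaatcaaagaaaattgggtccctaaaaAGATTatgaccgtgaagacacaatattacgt
ARR4: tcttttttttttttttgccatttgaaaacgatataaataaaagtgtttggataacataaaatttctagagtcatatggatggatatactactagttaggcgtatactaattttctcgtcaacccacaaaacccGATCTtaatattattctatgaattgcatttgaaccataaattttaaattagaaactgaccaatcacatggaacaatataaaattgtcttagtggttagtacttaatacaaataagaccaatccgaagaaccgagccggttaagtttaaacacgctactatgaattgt
ARR5: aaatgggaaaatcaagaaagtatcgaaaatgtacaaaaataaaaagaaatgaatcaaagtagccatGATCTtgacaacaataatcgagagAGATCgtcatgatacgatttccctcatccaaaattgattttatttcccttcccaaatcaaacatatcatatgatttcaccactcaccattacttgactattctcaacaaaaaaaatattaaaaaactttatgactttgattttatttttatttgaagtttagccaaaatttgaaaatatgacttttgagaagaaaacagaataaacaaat
ARR6: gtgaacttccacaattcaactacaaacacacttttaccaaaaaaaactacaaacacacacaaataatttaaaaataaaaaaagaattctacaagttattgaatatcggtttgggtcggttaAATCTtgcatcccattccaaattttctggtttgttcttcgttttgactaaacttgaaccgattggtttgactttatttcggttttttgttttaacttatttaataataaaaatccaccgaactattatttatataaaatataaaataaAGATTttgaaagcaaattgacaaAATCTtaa
ARR9: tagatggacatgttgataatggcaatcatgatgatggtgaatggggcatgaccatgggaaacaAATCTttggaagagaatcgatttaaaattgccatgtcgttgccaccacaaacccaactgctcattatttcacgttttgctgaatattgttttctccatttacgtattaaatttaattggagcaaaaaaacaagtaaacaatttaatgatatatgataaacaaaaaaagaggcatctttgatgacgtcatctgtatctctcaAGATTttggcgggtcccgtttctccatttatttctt

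The ARR7 window held 6 matches to AGATT or AGATC, of which 2 overlapped in the palindrome AGATCT. As many or more were found in 1.75% of the windows of 27433 genes. ARR16 held 5 matches, ARR15 held 4 and ARR6 held 3, with 4.92%, 11.8% and 25.8% of all windows holding as many or more. ARR5 and ARR9 held 2 each, which is the median of all windows, and ARR3, ARR4, ARR8 and ARR17 held 1 each. At least 1 match was present in all 10 members and in 79.8% of all windows. The members' median was also 2, with 1 to 6 matches per member. Over 1000 bases the members' median was 8.5 against 6. GAANNTTC, part of the heat shock element, was found in ARR7 and ARR15 and in 11.4% of all windows. CACGTG, the G-box, was in no member's window and in 7.12% of all windows. Both were searched on both strands. A match is a description of the letters and not of binding, and the windows end 76 to 557 bases upstream of the starts in the deposited table.

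Summed over the 10 members, the family stood at 108 ± 10.7 FPKM in the wild type at 22 °C and 77.0 ± 2.87 in the wild type at 38 °C (SD, n = 3 for each group). In the mutant the order was the opposite, with 75.8 ± 7.26 FPKM at 22 °C and 115 ± 6.90 at 38 °C. ARR4 and ARR7 together made up 56.1%, 46.8%, 51.4% and 54.4% of the sum in those groups, in that order. In bulk flowers, fewer cells of a type and less RNA per cell cannot be told apart. The summed FPKM of 6 genes of dividing cells was 267 to 277 in the wild type at 22 °C, 138 to 198 in the wild type at 38 °C, 271 to 346 in the mutant at 22 °C and 202 to 254 in the mutant at 38 °C. No gene of that list was at 0 in all libraries, the sums were lower after heat in both genotypes and higher in the mutant than in the wild type at 38 °C, and their part in the family's values was not tested.

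**Figure D1:**
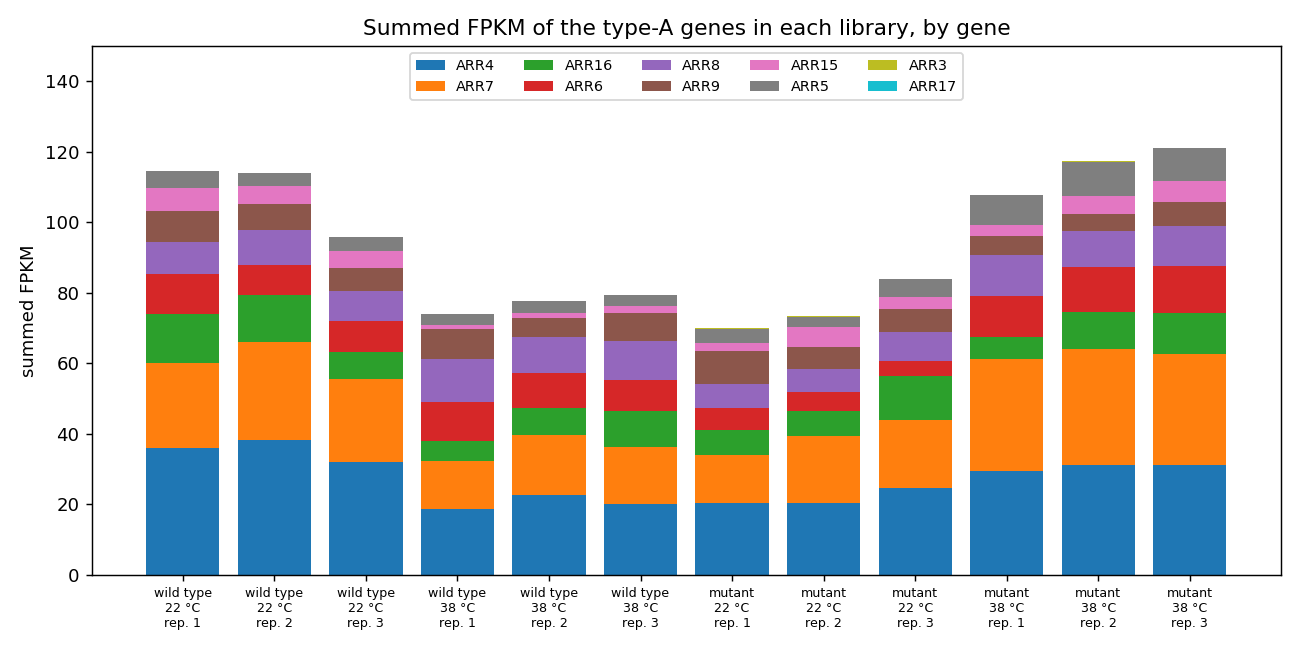
Stacked bars give the summed FPKM of the 10 type-A genes in each of the 12 libraries, with 1 colour per gene. The 3 wild-type libraries at 38 °C and the 3 mutant libraries at 22 °C lie below all libraries of the other 2 groups, and ARR4 and ARR7 form the largest segments.

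In the wild type at 22 °C the members ranked ARR4 (35.4 ± 3.03 FPKM), ARR7 (25.1 ± 2.45), ARR16 (11.7 ± 3.34), ARR6 (9.50 ± 1.38), ARR8 (9.18 ± 0.761), ARR9 (7.56 ± 1.15), ARR15 (5.50 ± 0.985) and ARR5 (4.11 ± 0.536). ARR4 and ARR7 did not overlap each other or the rest. From ARR16 down to ARR15 each gene overlapped its neighbour in the order, and ARR15 lay just above ARR5. In the mutant at 38 °C ARR7 (32.03 ± 0.685 FPKM) lay just above ARR4 (30.6 ± 1.04), and ARR5 at 9.21 ± 0.585 FPKM stood above ARR9 and ARR15. ARR3 and ARR17 were close to 0 throughout, at 0 to 0.289 and 0 to 0.135 FPKM. Both were removed by the filter on low counts, so 8 members were tested.

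Heat in the wild type lowered part of the family. Among the 8 members tested, 3 fell, which were ARR4, ARR7 and ARR15, and none rose, while 16.4% of all genes tested fell and 14.3% rose. The members' median log2 fold change was -0.58, against -0.05 over all genes tested. For the count of 0 higher, edgeR also gave 0 at an unadjusted p below 0.05, and DESeq2 and limma gave 0. These 3 falls passed under each of the 23 alternatives run. With scaling on reference genes ARR8 rose, at 0.44.

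Heat in the mutant raised part of it. ARR4, ARR5, ARR6, ARR7 and ARR8 rose, 5 of 8, and none fell, while 11.3% of all genes tested rose and 13.6% fell. The median was 0.46, against -0.00 over all genes. For the count of 0 lower, edgeR gave 1 at an unadjusted p below 0.05, and DESeq2 and limma gave 0.

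Between the genotypes at 22 °C only ARR4 passed, lower in the mutant. That is 1 of 8, while 0.0297% of all genes were lower and 0.161% higher in the mutant. The median was -0.48, against -0.01 over all genes. DESeq2 called 3 members lower, and edgeR had 4 lower and 0 higher at an unadjusted p below 0.05. The share of all genes at that unadjusted threshold was not computed. Over all genes DESeq2 called 95 lower and 152 higher, against 7 and 38 with edgeR. No member was called higher by edgeR, DESeq2 or limma. The count of lower members was 0 without wild-type replicate 1 or 2 or mutant replicate 1 at 22 °C.

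At 38 °C, ARR4, ARR5, ARR7 and ARR15 were higher in the mutant, 4 of 8, and none was lower, while 4.36% of all genes were higher and 5.26% lower. The median was 0.42, against -0.00 over all genes. For the count of 0 lower, edgeR gave 0 at an unadjusted p below 0.05, and so did DESeq2 and limma.

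The difference of the heat responses is the mutant's log2 fold change minus that of the wild type. It passed for ARR4, ARR5, ARR6 and ARR7, all 4 more positive in the mutant and none more negative, while 0.407% of all genes were more positive and 1.18% more negative. The median was 1.23, against 0.03 over all genes. For the count of 0 more negative, edgeR gave 0 at an unadjusted p below 0.05, and DESeq2 and limma gave 0. DESeq2 gave 5 members more positive and limma 4. Over all genes DESeq2 gave 647 more positive and 1195 more negative, and limma 94 and 232, against 96 and 278 with edgeR. Without the 3 libraries lowest on the second component, 1 member passed. Over all genes that fit gave 4 more positive and 20 more negative, against 96 and 278 with all libraries. The count of members was 2 without wild-type replicate 1 or 2 at 22 °C, wild-type replicate 1 or 2 at 38 °C, or mutant replicate 2 or 3 at 38 °C. These 5 comparisons share libraries, so their results are not independent of each other, and a family named with results in view gives no support from its share of passing genes.

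**Figure D2:**
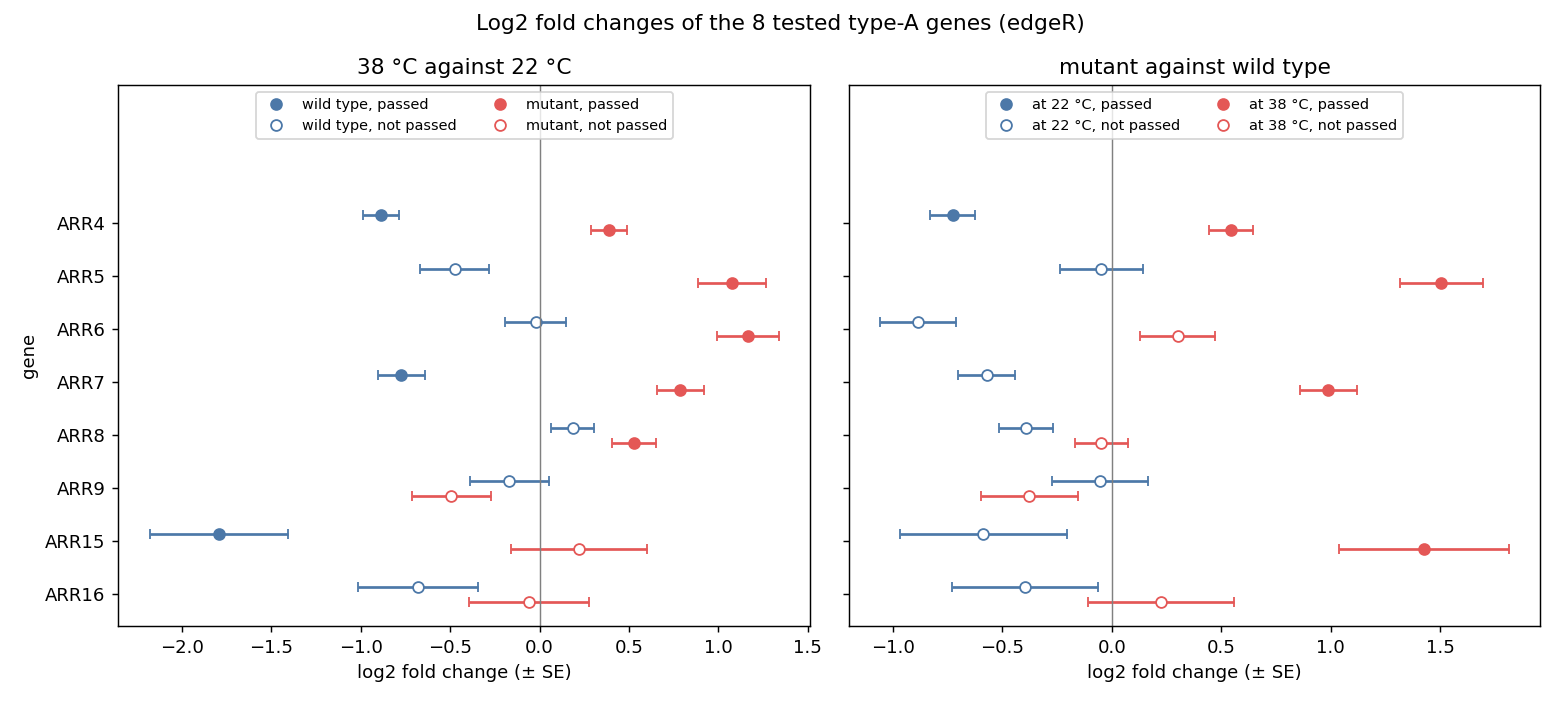
Log2 fold changes of the 8 tested members with their SE, for 38 °C against 22 °C (left) and for the mutant against the wild type (right). Filled points passed at an adjusted p below 0.05 over all genes. On the left, ARR4 and ARR7 lie on opposite sides of 0 in the 2 genotypes with both points filled. ARR5, ARR6 and ARR15 also lie on opposite sides of 0 there, but not with both points filled. ARR9 and ARR16 have no filled point.

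ARR4, which binds phytochrome B and links cytokinin with light signalling, was the most abundant member in the wild type. In the wild type it was at 35.9, 38.1 and 32.1 FPKM at 22 °C and at 18.5, 22.7 and 19.99 FPKM at 38 °C in replicates 1 to 3. In the mutant it was at 20.3, 20.4 and 24.6 FPKM at 22 °C and at 29.4, 31.2 and 31.2 FPKM at 38 °C. The groups did not overlap in any of the 4 comparisons between groups that share a genotype or a temperature. Its log2 fold change with heat was -0.89 ± 0.10 in the wild type and 0.39 ± 0.10 in the mutant, the first a fall and the second a rise. The mutant was at -0.73 ± 0.10 against the wild type at 22 °C and at 0.55 ± 0.10 at 38 °C, also both passing. The difference of the heat responses was 1.27 ± 0.14 and passed under each of the 22 alternatives run. The heat response of the mutant no longer passed without unheated mutant replicate 1 (0.34) or heated mutant replicate 2 (0.35) or 3 (0.38). The genotype call at 22 °C was lost without wild-type replicate 1 (-0.73) or 2 (-0.68) or mutant replicate 1 (-0.69), all at 22 °C, and with only the 2 groups compared (-0.72). ARR3, its closest relative in sequence, had at most 15 counts in any library and was above 0 in 5 of 12 libraries.

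ARR7 and ARR15 are the pair best known from the shoot apical meristem, where WUSCHEL represses type-A genes and the auxin response factor MONOPTEROS represses this pair. ARR7 was at 24.2, 27.9 and 23.3 FPKM in the wild type at 22 °C and at 13.9, 16.9 and 16.3 FPKM at 38 °C. In the mutant it was at 13.7, 18.9 and 19.2 FPKM at 22 °C and at 31.9, 32.8 and 31.4 FPKM at 38 °C. All 3 mutant libraries at 38 °C exceeded every other library, and no pair of the compared groups overlapped. Heat changed ARR7 by -0.77 ± 0.13 in the wild type and by 0.79 ± 0.13 in the mutant on the log2 scale, and both passed. The mutant differed by 0.99 ± 0.13 at 38 °C, which passed, and by -0.57 ± 0.13 at 22 °C, which did not with edgeR and did with DESeq2, at -0.56. Its difference of the heat responses, 1.56 ± 0.19, passed in all alternatives but the fit without the 3 libraries lowest on the second component. There it was 1.67, and over all genes 4 were called more positive in that fit.

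ARR15 had the widest span of the tested members, with 1.78 log2 units between its highest and lowest group means. In the wild type it was at 6.61, 5.15 and 4.74 FPKM at 22 °C and at 1.26, 1.64 and 2.16 FPKM at 38 °C. In the mutant it was at 2.05, 5.66 and 3.49 FPKM at 22 °C and at 2.94, 4.98 and 6.07 FPKM at 38 °C, so the mutant libraries overlapped widely. The heated wild type lay below its unheated libraries and below all heated mutant libraries. ARR15 fell with heat in the wild type, with a log2 fold change of -1.79 ± 0.39, a call kept under all 23 alternatives. In the mutant the heat value was 0.22 ± 0.38 and did not pass. The genotype difference at 38 °C was 1.43 ± 0.39 and passed, but the call was lost in 13 of 23 alternatives, 9 of which leave out 1 library. Among the 12 fits that each leave out 1 library, the call held only without mutant replicate 1 or 2 at 22 °C or mutant replicate 1 at 38 °C, and the value ran from 1.21 to 1.67. The difference of the heat responses was 2.01 ± 0.54, with the largest value and the largest SE of the 8 tested members, and did not pass with edgeR. DESeq2 called it, at 1.99.

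ARR5 and ARR6 are the primary response genes most used as cytokinin reporters, ARR5 in plants and ARR6 in protoplasts. ARR5 was at 4.69, 3.64 and 3.99 FPKM in the wild type at 22 °C and at 2.99, 3.36 and 3.10 FPKM at 38 °C. In the mutant it was at 4.15, 2.99 and 5.01 FPKM at 22 °C and at 8.59, 9.74 and 9.31 FPKM at 38 °C. The heated mutant libraries stood alone, at 8.59 FPKM or more while the highest of the other libraries was at 5.01, and only the genotypes at 22 °C overlapped. ARR5 rose by 1.08 ± 0.19 with heat in the mutant, and the heated mutant was higher than the heated wild type by 1.51 ± 0.19, both on the log2 scale. In the wild type its heat value of -0.48 ± 0.19 did not pass, and neither did the genotype value at 22 °C of -0.05 ± 0.19. For ARR5 the difference of the heat responses, 1.55 ± 0.27, passed but lost its call in 9 of 22 alternatives. Among these were the fits without wild-type replicate 1 (1.46) or 2 (1.64) at 22 °C, heated wild-type replicate 1 (1.52) or 2 (1.60), unheated mutant replicate 1 (1.58), and heated mutant replicate 2 (1.49) or 3 (1.56).

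ARR6 was lowest in the unheated mutant and highest in the heated mutant. It was at 11.1, 8.72 and 8.69 FPKM in the wild type at 22 °C and at 11.2, 10.1 and 8.62 FPKM at 38 °C, which overlapped. In the mutant it was at 6.23, 5.36 and 4.13 FPKM at 22 °C and at 11.7, 12.9 and 13.4 FPKM at 38 °C. The unheated mutant lay below and the heated mutant above every wild-type library. With heat ARR6 rose by 1.17 ± 0.17 in the mutant, and its wild-type value was -0.02 ± 0.17, whose sign turned with the scaling (0.22 on reference genes). The genotype values were -0.89 ± 0.17 at 22 °C and 0.30 ± 0.17 at 38 °C, and neither passed, though DESeq2 called the first. The difference of the heat responses, 1.19 ± 0.24, passed and lost its call in 13 of 22 alternatives. Of the 12 fits that each leave out 1 library, the call held only without mutant replicate 1 or 3 at 22 °C, and the value ran from 1.04 to 1.34 over the 12.

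**Figure D3:**
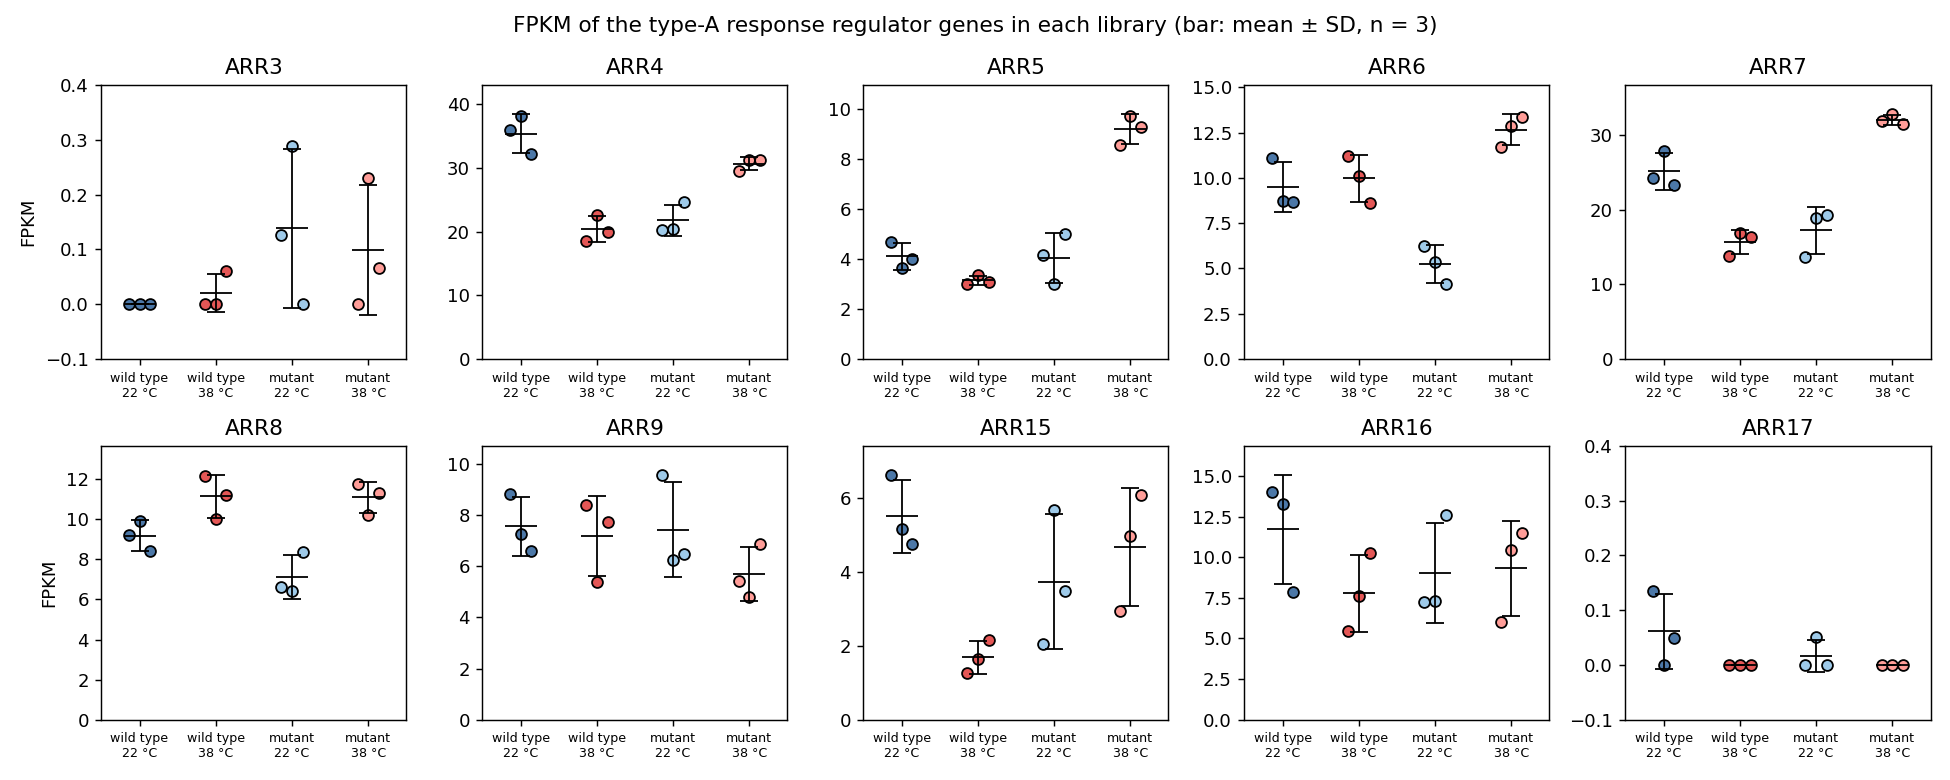
FPKM of each of the 10 members in each library (points, replicates 1 to 3 from left to right) with the mean and SD of each group (n = 3), each panel on its own axis. ARR5 in the mutant at 38 °C lies apart at 8.59 to 9.74 FPKM, and ARR3 and ARR17 stay at 0.289 FPKM or less in all 12 libraries.

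ARR8 and ARR9 form a separate branch of the family whose transcripts respond less to added cytokinin in seedlings. ARR8 was at 9.21, 9.93 and 8.41 FPKM in the wild type at 22 °C and at 12.2, 10.03 and 11.2 FPKM at 38 °C. In the mutant it was at 6.61, 6.40 and 8.37 FPKM at 22 °C and at 11.8, 10.2 and 11.3 FPKM at 38 °C. Heated libraries were above unheated ones in both genotypes, and the genotypes overlapped at 38 °C. Its log2 fold change with heat was 0.53 ± 0.12 in the mutant, which passed, and 0.18 ± 0.12 in the wild type, which did not. Without the 3 libraries lowest on the second component the mutant value was 0.45 and did not pass. The difference between these responses was 0.34 ± 0.17 and did not pass. ARR9, whose transcript is under control of the circadian clock, ran from 4.78 to 9.56 FPKM and overlapped between groups in all 4 comparisons. Its heat values were -0.17 ± 0.22 in the wild type and -0.49 ± 0.22 in the mutant, and none of its comparisons passed.

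ARR16 and ARR17 encode the shortest proteins of the family, with 164 and 153 residues by coding length, and are known from the stomatal lineage of leaves. ARR16 was at 14.01, 13.3 and 7.89 FPKM in the wild type at 22 °C and at 5.45, 7.64 and 10.2 FPKM at 38 °C. In the mutant it was at 7.23, 7.28 and 12.6 FPKM at 22 °C and at 6.02, 10.4 and 11.5 FPKM at 38 °C. All groups overlapped, with an SD of 2.39 to 3.34 FPKM within groups. Its heat value was -0.68 ± 0.33 in the wild type and -0.06 ± 0.34 in the mutant, and none of its 5 comparisons passed. ARR17 was above 0 in 3 of 12 libraries, with at most 4 counts.

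In the rest of the pathway, 78 genes of cytokinin synthesis, removal, transport, perception, signalling and response were listed, of which 73 were in the table and 65 were tested. In the wild type 7 of 65 rose and 12 fell with heat, while 14.3% of all genes tested rose and 16.4% fell. The pathway median was -0.01, and without wild-type replicate 1 at 38 °C 7 pathway genes fell. In the mutant 10 rose and 13 fell, while 11.3% of all genes tested rose and 13.6% fell. The pathway median was 0.11, and without mutant replicate 1 at 38 °C 8 pathway genes fell. At 22 °C no pathway gene passed between the genotypes by edgeR, while 0.161% of all genes were higher and 0.0297% lower. At an unadjusted p below 0.05, 0 pathway genes were higher and 5 lower, DESeq2 gave 0 and 2, and limma none. The share of all genes at an unadjusted p below 0.05 was not computed for any comparison. Counts at that threshold, here and for the members, thus have no reference over all genes. At 38 °C 1 was higher and 6 were lower in the mutant, while 4.36% of all genes were higher and 5.26% lower. The pathway median was 0.04, and without mutant replicate 3 at 38 °C 3 pathway genes were lower. In the difference of the heat responses 2 passed, both negative, while 1.18% of all genes were more negative and 0.407% more positive. The pathway median was 0.07. For the count of 0 positive, edgeR gave 10 at an unadjusted p below 0.05, DESeq2 gave 4 and limma 0. These shares over all genes are also the reference for the counts of single lists in the paragraphs below, where they are not repeated.

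Of 12 tested genes of cytokinin synthesis, 2 rose and 1 fell in the heated wild type, and 2 rose and 2 fell in the heated mutant, with medians of 0.17 and 0.19. LOG5, which releases active cytokinin from its nucleotide, rose with heat in the wild type by 0.97 ± 0.15 (adjusted p = 0.00068) on the log2 scale. In the mutant at 38 °C it was lower than in the wild type, with a log2 difference of -0.74 ± 0.15 (adjusted p = 0.0102), and without mutant replicate 3 at 38 °C the value was -0.68 and did not pass. LOG8, of the same enzyme family, fell in the wild type (log2 fold change -0.78 ± 0.14, adjusted p = 0.00162) and in the mutant (log2 fold change -0.71 ± 0.14, adjusted p = 0.00416), where without the 3 libraries lowest on the second component the value was -0.52 and did not pass. CYP735A2, which makes trans-zeatin forms, rose in the mutant by 1.40 ± 0.31 (adjusted p = 0.00897). Of 9 tested genes of cytokinin removal, 3 fell in the wild type, and 2 rose and 2 fell in the mutant, with medians of -0.42 and 0.13. The oxidase gene CKX3 rose in the mutant by 1.41 ± 0.34 (adjusted p = 0.0126) and CKX5 fell in the wild type (log2 fold change -0.81 ± 0.11, adjusted p = 0.00032). UGT76C2, a cytokinin glucosyltransferase, fell in the wild type (log2 fold change -1.23 ± 0.26, adjusted p = 0.00472) and in the mutant (log2 fold change -1.18 ± 0.26, adjusted p = 0.00808). Of 7 transporter genes, 3 fell in the wild type, and 1 rose and 1 fell in the mutant, with medians of -0.48 and 0.10. ABCG14, which exports cytokinin from the root, rose in the mutant by 0.64 ± 0.09 (adjusted p = 0.000659). All p-values in this and the next 3 paragraphs are from edgeR's quasi-likelihood test with Benjamini-Hochberg adjustment over all genes. The pathway lists were also chosen with earlier results of these data known, so these p-values are descriptive.

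Of the 3 receptor genes, AHK3 differed most between the genotypes. In the wild type it was at 21.8, 22.7 and 18.6 FPKM at 22 °C and at 31.6, 27.8 and 25.6 FPKM at 38 °C. In the mutant it was at 20.4, 20.1 and 19.1 FPKM at 22 °C and at 17.5, 17.5 and 17.5 FPKM at 38 °C. Each heated wild-type library was above every other library, and each heated mutant library below. At 38 °C the log2 difference, mutant minus wild type, was -0.74 ± 0.09 (adjusted p = 0.000677). Its heat value was 0.34 ± 0.09 (adjusted p = 0.0141) in the wild type, which without wild-type replicate 1 at 38 °C was 0.25 and did not pass, and -0.29 ± 0.09 (adjusted p = 0.0343) in the mutant. The mutant value passed in 13 of 23 alternatives and not without any 1 of the mutant libraries other than replicate 3 at 22 °C, with values from -0.31 to -0.26. The difference of the heat responses was -0.63 ± 0.13 (adjusted p = 0.0384). Of the 12 fits that each leave out 1 library, it passed only without wild-type replicate 3 at 38 °C or mutant replicate 3 at 22 °C, with values from -0.68 to -0.54 where it was lost. AHK4, another receptor gene, fell in the mutant (log2 fold change -0.28 ± 0.09, adjusted p = 0.0415), and so did AHK2 (log2 fold change -0.28 ± 0.09, adjusted p = 0.0376). These 2 calls were lost in 20 and 15 of 23 alternatives.

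Among the phosphotransfer genes, 1 of 6 fell in each genotype, AHP2 in the wild type and AHP3 in the mutant. Both calls were lost in most alternatives, 16 and 18 of 23. Of 7 tested type-B genes, ARR2 fell with heat in the wild type (log2 fold change -0.67 ± 0.11, adjusted p = 0.00115) and in the mutant (log2 fold change -0.71 ± 0.11, adjusted p = 0.00142). ARR10 fell in the wild type (log2 fold change -0.51 ± 0.12, adjusted p = 0.0072), a call lost with scaling on reference genes. ARR1 was lower in the mutant at 38 °C, with a log2 difference of -0.36 ± 0.06 (adjusted p = 0.0049). The KMD genes encode F-box proteins that send type-B regulators for degradation, and 3 of the 4 listed were in the table. KMD4 was at 10.5, 10.9 and 8.71 FPKM in the wild type at 22 °C and at 21.5, 13.2 and 20.5 FPKM at 38 °C. In the mutant it was at 17.4, 10.6 and 7.11 FPKM at 22 °C and at 3.62, 4.06 and 4.91 FPKM at 38 °C. The heated mutant libraries were the lowest, and the heated mutant was lower than the heated wild type, with a log2 difference of -2.17 ± 0.28 (adjusted p = 0.00141). KMD4 fell with heat in the mutant (log2 fold change -1.59 ± 0.29, adjusted p = 0.00295), and the difference of the heat responses was -2.37 ± 0.40 (adjusted p = 0.0231). That difference no longer passed without wild-type replicate 1 (-2.39) or 2 (-2.42) at 22 °C, wild-type replicate 1 at 38 °C (-2.24), or mutant replicate 1 (-2.27), 2 (-2.36) or 3 (-2.48) at 38 °C. Nor did it pass without the 3 libraries lowest on the second component, or with the replicate number as a block. KMD1 rose with heat in the wild type by 2.02 ± 0.40 (adjusted p = 0.00338). It was lower in the mutant at 38 °C, with a log2 difference of -1.60 ± 0.39 (adjusted p = 0.0282), a call lost without wild-type replicate 1 (-1.47) or 3 (-1.46) or mutant replicate 1 (-1.42) or 3 (-1.51), all at 38 °C.

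**Figure D4:**
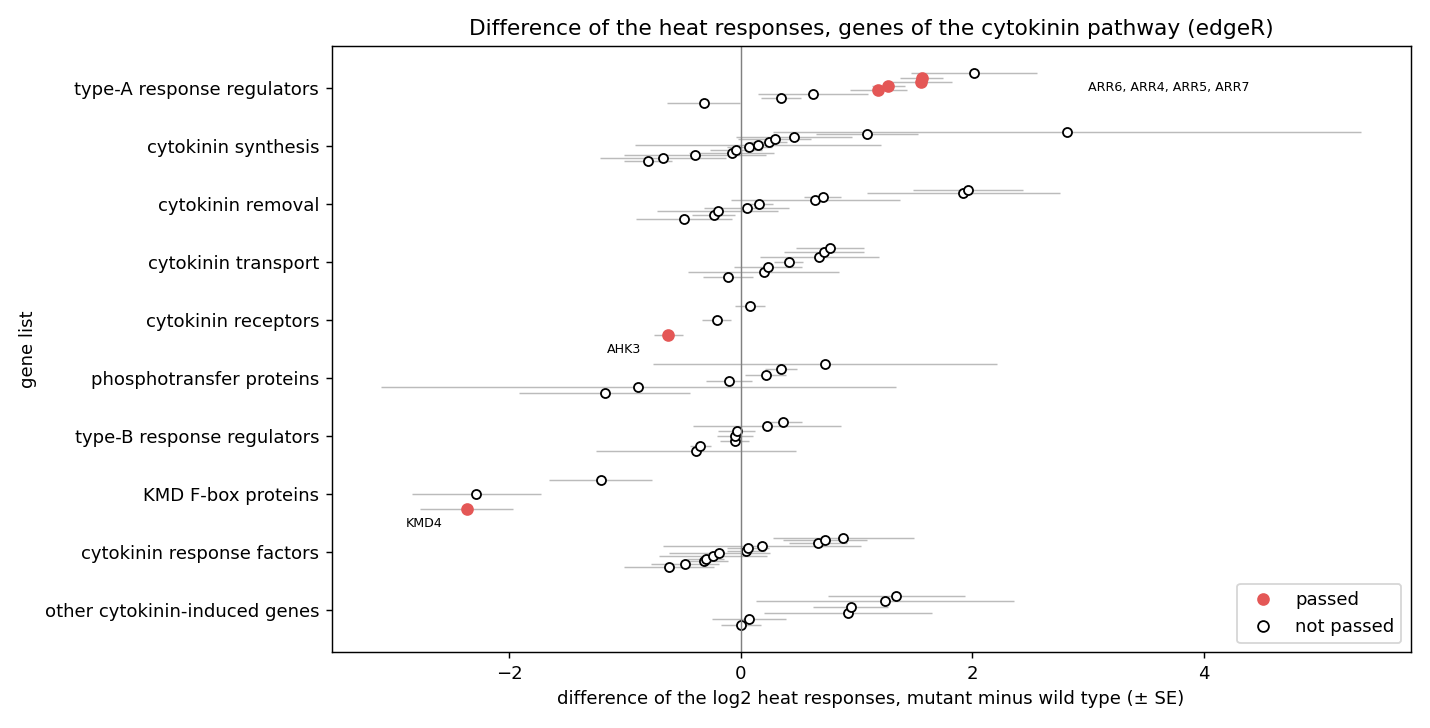
Difference of the log2 heat responses, mutant minus wild type, for each tested gene of the type-A family and of 9 other cytokinin lists, with SE. Filled points passed. The passing family members lie right of 0, at 1.19 to 1.56, and AHK3 and KMD4 lie left of it.

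Cytokinin response factors are AP2-type transcription factors, part of which are induced by cytokinin. With heat CRF10 rose by 1.46 ± 0.33 (adjusted p = 0.00713) and CRF11 by 0.69 ± 0.13 (adjusted p = 0.00229) in the wild type. In the mutant CRF11 rose by 0.75 ± 0.13 (adjusted p = 0.00216) and CRF4 by 0.86 ± 0.18 (adjusted p = 0.00546). In all, 3 of 12 rose and 1 fell in the wild type, and 4 rose and 1 fell in the mutant. IAA3 is an auxin repressor gene that cytokinin induces through ARR1 in roots. It was higher in the mutant at 38 °C by 1.23 ± 0.23 (adjusted p = 0.00716), and was the gene counted as higher there. IAA3 was 1 of 6 genes listed as other cytokinin-induced genes, whose median there was 0.49. EXPA1 of that list was at -0.74 (adjusted p = 0.0642) and did not pass. CYCD3;1 (0.11), GNC (0.46), CGA1 (0.51) and ASL9 (1.03) did not pass either. DESeq2 called 1 of the 6 higher and 1 lower at 38 °C. With heat, 1 of the 6 rose in the mutant and 0 in the wild type, and none fell. Regulators of type-A genes in the shoot apex and gynoecium were listed separately, 7 in all. HEC2, a basic helix-loop-helix gene of the gynoecium, fell in the wild type (log2 fold change -1.66 ± 0.33, adjusted p = 0.0032), and was the 1 of 7 to pass there. In the mutant 3 fell, among them HEC3 (log2 fold change -0.96 ± 0.22, adjusted p = 0.0087).

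The genes whose log2 CPM (counts scaled to library size) followed the mean of the 8 tested members most closely over the 12 libraries were TGA3 (Pearson r = 0.90), AtIPCS3 (0.87), SERAT2;2 (0.87), AOP2 (0.87) and NST1 (0.86). For ARR15 they were HGPT (0.91), DAR2 (0.91) and MNS2 (0.90). For ARR5 they were EXO70E1 (0.95), UCP5 (0.95) and SOT16 (0.94). The 12 points share 4 groups, so a gene that differs between groups in the same order reaches a high r, and the values are a description. UCP5, a mitochondrial carrier gene, averaged 16.9 and 16.7 FPKM in the wild type at 22 and 38 °C and 22.7 and 44.0 FPKM in the mutant.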

How the data were processed

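Arabidopsis flower poly(A) RNA was sequenced in 12 libraries, per the labels by the dUTP second-strand method with paired reads of 150 bases. Per the submitters' processing notes the tools were StringTie 1.3.4d, HISAT2 2.0.4 and cutadapt 1.9, and the genome was TAIR10. The deposited table gives, per gene and library, estimated counts rounded to whole numbers and FPKM values scaled by the authors to length and depth. Of estimated counts from 1 to 20 in genes with 1 transcript, 47.2% were multiples of 4, against 25% without a pile-up, so 1 fragment may stand for several counts. No counting interval was drawn for that reason.

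Genes were tested by edgeR 4.0.16 (R 4.3.3) on the estimated counts, with TMM, filterByExpr at a minimum count of 10 and 1 mean for each of the 4 groups, leaving 23585 genes and 8 residual degrees of freedom. The SE came from the same fit. Alternatives used DESeq2 1.42.0 and limma 3.58.1 on log2(FPKM + 1), where a fold change understates low genes. The members, pathway lists and markers were chosen with earlier results of these data known. Text names all members, and of the pathway lists genes that passed, with up to 4 of the smallest p per list and comparison eligible. Likeness was Pearson r of log2 CPM. Replicate numbers showed no sign of pairing the libraries: 2 of 18 same-numbered pairs had deviations correlated above 0.1, from -0.28 to 0.27. Other pairs ran from -0.22 to 0.23. The median r was -0.020 for same-numbered pairs and 0.026 for other pairs. Motifs were searched in windows of RefSeq's TAIR10.1 genome, where 26097 of 26098 matched genes overlapped their deposited positions on the same chromosome.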

Additional observations from a re-analysis of the deposited data

Results flagged for a closer look

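Effects of heat that differed between the genotypes were found for 4 members of the family and 2 other pathway genes, by the test of the difference itself (mutant minus wild type, log2 scale). The differences were 1.27 for ARR4, 1.55 for ARR5, 1.19 for ARR6 and 1.56 for ARR7. The calls of ARR5 and ARR6 were lost in 9 and 13 of 22 alternatives. That of ARR7 was lost in 1, the fit without the 3 libraries lowest on the second component. For the receptor gene AHK3 the difference was -0.63, a call lost in 15 of 22 alternatives. For KMD4, an F-box gene, it was -2.37. That call was lost without any 1 of the heated mutant libraries, wild-type replicate 1 or 2 at 22 °C, or wild-type replicate 1 at 38 °C. The KMD4 call was also lost without the 3 libraries lowest on the second component, and with the replicate number as a block. The members and the pathway lists were chosen with earlier results of these data known, so all of these differences are descriptions. Heated wild-type libraries were above and heated mutant libraries below the unheated ones of their genotype for AHK3 and KMD4, and the reverse for ARR4, ARR5 and ARR7.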

How the results depend on the processing

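Most calls kept their direction, and no value that passed changed sign under any alternative run. With DESeq2, 3 members were lower at 22 °C (1 with edgeR). Pathway genes numbered 2 lower at 22 °C, and 2 higher and 10 lower at 38 °C (0, 1 and 6 with edgeR). In the difference of the heat responses 4 were more positive and 6 more negative (0 and 2 with edgeR). Over all genes DESeq2 gave 95 lower at 22 °C, and 1792 higher and 2243 lower at 38 °C (7, 1028 and 1241 with edgeR). In the difference it gave 647 more positive and 1195 more negative over all genes (96 and 278 with edgeR). Scaling on reference genes gave 1 member higher with heat in the wild type, and pathway counts of 15 higher and 5 lower in the wild type and 7 lower in the mutant (7, 12 and 13 with TMM). With limma on log2(FPKM + 1), on log2(FPKM + 0.1) and without a filter on low values, pathway genes lower with heat numbered 7, 6 and 6 in the wild type and 8, 8 and 8 in the mutant, and 1 was more negative in the difference each time. With only the groups compared, 0 members were lower at 22 °C and 2 pathway genes higher at 38 °C.

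Without the 3 libraries lowest on the second component, 1 member was more positive in the difference and 0 pathway genes were more negative. Over all genes 4 were more positive and 20 more negative, against 96 and 278 with all libraries. Heat in that fit gave 11 pathway genes higher in the wild type and 6 lower in the mutant. With the replicate number as a block, 2 members were more positive in the difference and 0 pathway genes more negative. Over all genes the block left 24 more positive and 104 more negative. The replicate numbers showed no sign of pairing the libraries. Leaving out 1 library at a time gave 0 to 1 members lower at 22 °C and 2 to 4 more positive in the difference. The pathway genes lower with heat ran from 7 to 13 in the wild type and 8 to 12 in the mutant, those lower at 38 °C from 3 to 7, and in the difference 0 to 1 were positive and 0 to 2 negative. The cause of these shifts was not tested.

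Flowers were pooled over stages, so cell types and stages were not separated. With 3 libraries per group, the biological coefficient of variation was 25.1%, and calls including those of ARR5 and ARR6 in the difference, ARR15 at 38 °C and ARR4 at 22 °C were lost without single libraries. The step from reads to counts is not stated in the sources used here, and ARR3 and ARR17 were too low to compare. The gene-level signal of XBAT31 was reduced and not absent in the mutant, and 1 heat duration and 1 mutant were measured.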
